A study of Mus musculus with 24 samples.

Results

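Ly6Chi monocytes of the spleen that lacked the nucleoside transporter *Slc29a3* were compared with Ly6Chi monocytes that lacked both *Slc29a3* and *Tlr7*, across all genes measured. The 8 samples were chosen from the 24 samples of the series by their labels: 4 samples of *Slc29a3*-/- mice and 4 samples of *Slc29a3*-/- *Tlr7*-/- mice, called double-knockout below. Both groups lacked *Slc29a3*, both were untreated, and they differed in *Tlr7* alone by their labels. No WT sample entered this comparison, so a difference gives the direction relative to double-knockout monocytes only. The knockouts had been made with CRISPR/Cas9 in C57BL/6 zygotes and are germline knockouts. The labels call the cells macrophages of the spleen, sorted as Ly6Chi cells that carried CD11b but no Ly6G, SiglecF or NK1.1. By the study's methods the gate also took cells low in *Fcgr4*, after other lineages had been depleted with magnetic beads. The labels give no age, and they do not say whether the 4 samples of a group came from 4 mice, so the p-values below measure only the spread between these samples.

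SLC29A3, also called ENT3, lets nucleosides leave the lysosome, and without it nucleosides from degraded nucleic acids build up there. TLR7 is a receptor of the endosome that senses guanosine and its deoxy form together with fragments of single-stranded RNA, and signals through the adaptor MyD88. Ly6Chi monocytes are the immature blood and spleen monocytes, which can divide, enter tissues, and mature into Ly6Clow monocytes. The comparison asks which transcripts of *Slc29a3*-deficient Ly6Chi monocytes depend on TLR7.

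Levels are in RPM, the reads of 1 amplicon per gene scaled to the same total in every sample, with a standard deviation over 4 samples where one is given. With the even step between the lowest values of a sample taken as 1 read, the 8 samples held 12310995 to 12983822 reads. Where a gene has no read, counting error alone leaves room for 3 reads, or 0.231 to 0.244 RPM depending on the sample. Tests were run with limma on log2(RPM + 1), a scale that understates the change of low genes, for every gene that reached 1 RPM in 4 or more samples. A gene was called higher or lower in *Slc29a3*-/- monocytes at a fold change over 1.5 and a Benjamini-Hochberg adjusted p under 0.05 over all genes tested. Every log2 fold change is the *Slc29a3*-/- value minus the double-knockout value, and every adjusted p comes from limma.

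The targeted genes came first. *Slc29a3* (chr10:60712072-60752849, GRCm38) read 167, 173, 162 and 127 RPM in *Slc29a3*-/- and 208, 413, 273 and 194 RPM in double-knockout replicates 1 to 4. *Tlr7* (chrX:167303380-167330574) read 227, 199, 181 and 111 RPM in *Slc29a3*-/- and 322, 259, 345 and 343 RPM in double-knockout replicates 1 to 4. Neither amplicon was lost in the genotype that lacks the gene, so transcript levels did not check the labels of these samples. The paper checked the mouse lines by sequencing, with an inserted stop codon in *Slc29a3* and a short deletion in *Tlr7*. It also reports that TLR7 protein was missing from double-knockout splenic monocytes. Both genes were lower in *Slc29a3*-/- monocytes without overlap between the groups (*Slc29a3* log2 fold change −0.73, SE 0.22, adjusted p = 0.044; *Tlr7* log2 fold change −0.85, SE 0.21, adjusted p = 0.017). The call of *Slc29a3* was lost when any of 6 samples was left out, all but double-knockout replicates 1 and 4, with an adjusted p of up to 0.13, whereas *Tlr7* was called in 8 of 8 such fits.

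The samples differed in ways that the genotypes do not name. Reads of Y-linked genes summed to 197 RPM in *Slc29a3*-/- replicate 1 and to 0 RPM in *Slc29a3*-/- replicates 2 to 4. Double-knockout replicates 1 to 3 held 227, 153.6 and 190.2 RPM of them and replicate 4 held 0 RPM. Double-knockout replicates 2 and 3 also held 299 and 109 RPM of *Xist*, the RNA of the inactive X chromosome, so that both carried reads of both kinds. Neutrophil and primary granule markers together took 8.22, 9.40, 9.12 and 15.02% of the reads in *Slc29a3*-/- and 3.93, 1.63, 1.61 and 4.44% in double-knockout replicates 1 to 4. Heat shock transcripts ran the other way, at 200.4 to 453 RPM in *Slc29a3*-/- and 384 to 2601 RPM in double-knockout samples. In bulk RNA, fewer cells of a type and less RNA per cell cannot be told apart.

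The groups separated on the first principal component, which held 48.8% of the variance: *Slc29a3*-/- samples lay between 15.2 and 53.8 and double-knockout samples between −42.2 and −21.1. Double-knockout samples lay at Euclidean distances of 55.3 to 79.5 from each other in log2 units, *Slc29a3*-/- samples at 39.1 to 56.8, and samples of different groups at 60.2 to 106.9. Of 10058 genes tested, 813 (8.08%) were higher and 637 (6.33%) lower in *Slc29a3*-/- monocytes, 598 and 253 of them by more than 2-fold. The 4 and 4 values did not overlap for 21.9% of genes. The median gene shifted by −0.10 on the log2 scale, and list medians below are to be read against that shift. After TMM scaling, which removes nearly all of it, 962 genes were higher and 413 lower, so that 70.0% of calls were higher in place of 56.1%. All 813 higher calls were kept by TMM, and 413 of the 637 lower ones. Without *Slc29a3*-/- replicate 4, 556 genes were higher and 245 lower, and without *Slc29a3*-/- replicate 3 or double-knockout replicate 3, 573 and 668 were higher and 294 and 353 lower. Among samples with Y-linked reads, a single *Slc29a3*-/- sample faced 3 double-knockout samples and no gene was called, with 491 higher and 274 lower at an unadjusted p under 0.05. Among those without them, 3 faced 1, and 177 genes were higher and 80 lower.

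**Figure D1:**
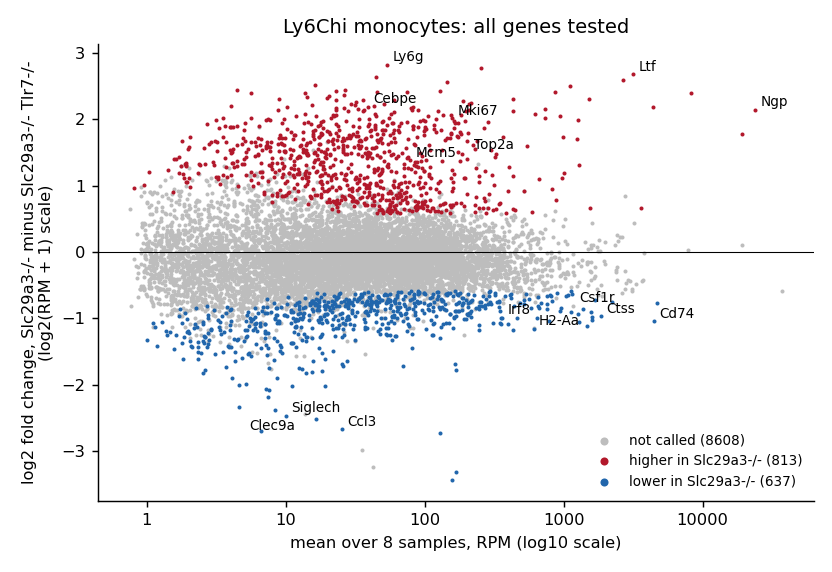
Fold change of every gene tested against its mean level (x axis, RPM on a log10 scale; y axis, log2 fold change of *Slc29a3*-/- minus double-knockout Ly6Chi monocytes), with 813 genes called higher in red, 637 called lower in blue and the rest in grey. The neutrophil granule genes *Ngp* and *Ltf* lie far right and high, cell division genes fill the high middle, and *Cd74* and *Ctss* are among the abundant genes below 0. *Csf1r* is labelled although it was not called.

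Genes were then read by lists of known function. The lists and their members were chosen with earlier results of these data known, so their shares of calls are descriptions, not tests. Calls among list members lay far above the 8.08% of all genes in the lists of DNA replication, mitosis, histones and neutrophil granules, and far above the 6.33% of lower calls in MHC class II presentation. None of 71 genes of the respiratory chain, 18 cytosolic ribosomal proteins, 17 cholesterol synthesis genes and 14 survival and death genes was called, though 3 ribosomal protein genes were lower without *Slc29a3*-/- replicate 2 or double-knockout replicate 1, and 1 cholesterol synthesis gene without double-knockout replicate 2, as was 1 survival gene without double-knockout replicate 2 or 3. At an unadjusted p under 0.05 the same limma fit called 1051 genes higher and 1128 lower over all genes.

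**Figure D2:**
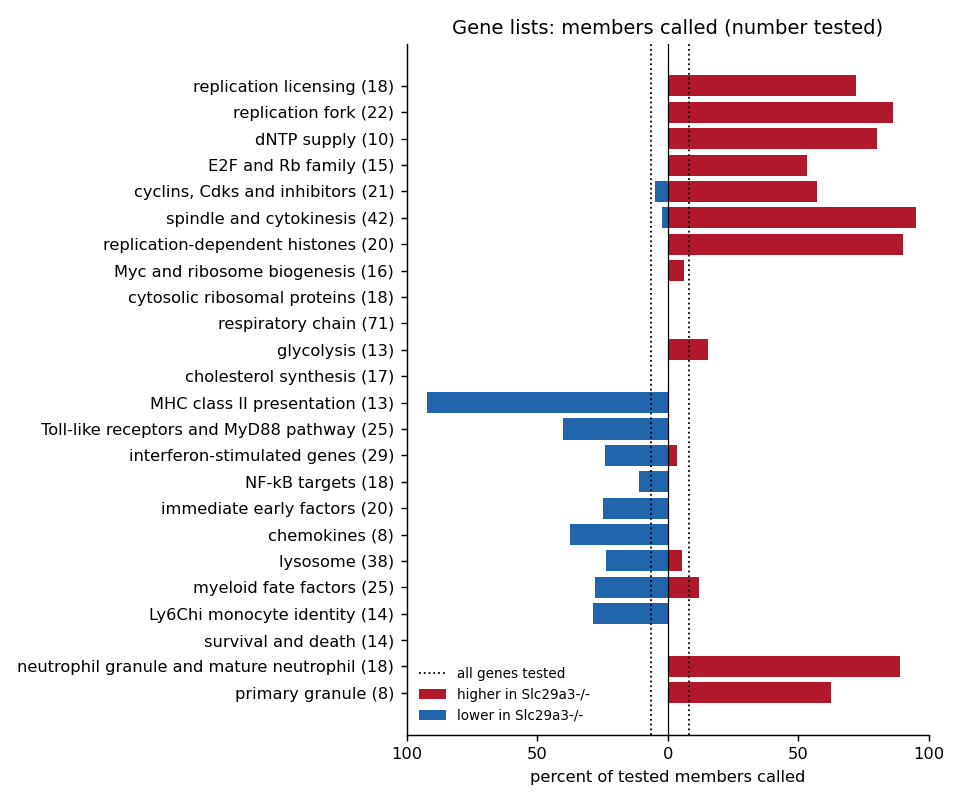
Percent of the tested members of each list called lower (blue, drawn to the left) or higher (red, drawn to the right) in *Slc29a3*-/- than in double-knockout Ly6Chi monocytes, with the number tested in brackets. Dotted lines mark the 6.33% and 8.08% of all 10058 genes; spindle and cytokinesis reaches 40 of 42 higher and MHC class II presentation 12 of 13 lower.

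Replication licensing factors, which load and start the MCM helicase at replication origins, were higher in *Slc29a3*-/- monocytes: 13 of 18 members were called higher and 0 lower, with a median log2 fold change of 1.39. *Cdc6*, a loader of the helicase, read 16.9, 24.04, 28.1 and 38.8 RPM in *Slc29a3*-/- and 6.55, 2.03, 7.37 and 13.1 RPM in double-knockout replicates 1 to 4. The lowest *Slc29a3*-/- value stood above the highest double-knockout value (log2 fold change 1.896, SE 0.41, adjusted p = 0.009). *Mcm5*, a subunit of the helicase (chr8:75109468-75128439), read 87.5, 99.9, 130.3 and 138 RPM in *Slc29a3*-/- and 39.1, 42.6, 39.2 and 49.2 RPM in double-knockout replicates 1 to 4. Every *Slc29a3*-/- value was above every double-knockout value (log2 fold change 1.38, SE 0.18, adjusted p = 0.00061). For *Mcm2*, another subunit, the levels were 191 ± 67.03 RPM in *Slc29a3*-/- and 52.6 ± 11.2 RPM in double-knockout monocytes (log2 fold change 1.802, SE 0.23, adjusted p = 0.0006). *Cdc45*, which joins the active helicase, was at 36.4 ± 13.9 RPM in *Slc29a3*-/- and 9.53 ± 2.87 RPM in double-knockout monocytes (log2 fold change 1.79, SE 0.301, adjusted p = 0.0025). *Cdt1*, *Orc6*, *Gins1*, *Gins3* and *Gins4* did not pass the test, with log2 fold changes from 0.26 to 1.23.

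Promoter stretches of 4 of these genes are shown because E2F factors, the regulators of S phase genes, bind motifs of the kind found there. Each stretch is GRCm38.p6 sequence from RefSeq, 5′ to 3′ on the strand of the gene, and capitals mark a match to an E2F motif (TTTCCCGC, TTTCGCGC, TTTGCCGC or TTTGGCGC, on either strand). They lie at chr11:98907983-98908050 (plus strand) for *Cdc6*, chr8:75109326-75109393 (plus strand) for *Mcm5*, chr1:128359778-128359845 (minus strand) for *Mcm6* and chr5:138172011-138172078 (minus strand) for *Mcm7*. In *Mcm5* and *Mcm6* the capitals hold a forward and a reverse match that overlap.
Cdc6: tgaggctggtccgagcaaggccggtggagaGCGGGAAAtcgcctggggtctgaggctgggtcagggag
Mcm5: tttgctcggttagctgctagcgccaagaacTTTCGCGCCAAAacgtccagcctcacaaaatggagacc
Mcm6: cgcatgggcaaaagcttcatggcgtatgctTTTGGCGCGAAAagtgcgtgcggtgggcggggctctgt
Mcm7: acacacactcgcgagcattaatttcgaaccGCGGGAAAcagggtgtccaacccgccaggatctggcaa

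Of the genes that work at the replication fork, 19 of 22 were higher and 0 lower (median log2 fold change 1.17). They include DNA polymerase and primase subunits, the clamp loader, and factors that restore chromatin behind the fork. *Uhrf1*, which brings the DNA methyltransferase *Dnmt1* to newly made DNA, read 212, 207, 281 and 337 RPM in *Slc29a3*-/- and 61.2, 53.5, 48.5 and 104 RPM in double-knockout replicates 1 to 4. *Chaf1b*, a subunit of the histone chaperone CAF-1, read 26.6, 30.4, 34.4 and 68.8 RPM in *Slc29a3*-/- and 13.9, 11.1, 12.8 and 10.3 RPM in double-knockout replicates 1 to 4. Neither overlapped between the groups (*Uhrf1* log2 fold change 1.98, SE 0.24, adjusted p = 0.00056; *Chaf1b* log2 fold change 1.56, SE 0.27, adjusted p = 0.003). *Pole2*, a subunit of DNA polymerase epsilon, also kept the groups apart but missed the threshold (8.63 ± 1.09 RPM in *Slc29a3*-/- and 4.897 ± 1.301 RPM in double-knockout monocytes; log2 fold change 0.72, SE 0.24, adjusted p = 0.058).

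The supply of deoxynucleotides followed, with 8 of 10 genes higher and 0 lower (median 1.48). *Rrm2*, the regulated subunit of ribonucleotide reductase (chr12:24708254-24714146), read 232, 243, 266 and 440 RPM in *Slc29a3*-/- and 89.6, 58.6, 39.7 and 100.4 RPM in double-knockout replicates 1 to 4. *Tk1*, thymidine kinase of dividing cells, read 68.2, 58.04, 74.5 and 115 RPM in *Slc29a3*-/- and 24.8, 15.4, 17.03 and 19.9 RPM in double-knockout replicates 1 to 4. *Tyms*, thymidylate synthase, read 37.7, 40.4, 32.98 and 109 RPM in *Slc29a3*-/- and 16.1, 2.84, 12.99 and 15.5 RPM in double-knockout replicates 1 to 4. All 3 separated the groups, and replicate 4 was the highest *Slc29a3*-/- sample in each (log2 fold change 2.06, SE 0.28, adjusted p = 0.00089 for *Rrm2*; log2 fold change 1.95, SE 0.23, adjusted p = 0.00056 for *Tk1*; log2 fold change 2.16, SE 0.48, adjusted p = 0.011 for *Tyms*). *Dck* and *Dctpp1* had log2 fold changes of 0.14 and 0.22 and were not called.

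Among E2F factors and the Rb family, which gate entry into S phase, 8 of 15 were higher and 0 lower (median 0.82). *E2f8*, a late repressor of the family, read 134, 151, 186 and 214 RPM in *Slc29a3*-/- and 48.4, 33.3, 35.01 and 46.4 RPM in double-knockout replicates 1 to 4, without overlap (log2 fold change 2.04, SE 0.19, adjusted p = 0.00046). *E2f7*, its relative, was at 44.96 ± 22.6 RPM in *Slc29a3*-/- and 8.16 ± 5.45 RPM in double-knockout monocytes (log2 fold change 2.44, SE 0.43, adjusted p = 0.003), with 78.7 RPM in *Slc29a3*-/- replicate 4 against 31.95 to 36.5 RPM in replicates 1 to 3. The activator *E2f1* rose less, from 32.4 to 36.97 RPM in double-knockout to 54.6 to 83.5 RPM in *Slc29a3*-/- samples (log2 fold change 0.82, SE 0.17, adjusted p = 0.008). *E2f2* and *Rbl2*, the gene of the pocket protein p130, overlapped between the groups and had log2 fold changes of 0.23 and −0.25 (adjusted p = 0.37 and 0.33).

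Of 21 cyclins, Cdks and their inhibitors, 12 were higher and 1 lower (median 1.27). *Ccna2*, the cyclin of S and G2 phase, read 223, 196, 228 and 376 RPM in *Slc29a3*-/- and 76.3, 51.7, 54.6 and 92.8 RPM in double-knockout replicates 1 to 4, without overlap (log2 fold change 1.87, SE 0.23, adjusted p = 0.00056). *Ccnd1*, the G1 cyclin that answers growth signals, was the 1 lower member, at 1.67, 2.77, 0.951 and 1.67 RPM in *Slc29a3*-/- and 8.39, 4.87, 5.78 and 6.495 RPM in double-knockout replicates 1 to 4 (log2 fold change −1.44, SE 0.28, adjusted p = 0.0055). Among the inhibitor genes, *Cdkn2c*, for p18, and *Cdkn3*, for a phosphatase of Cdks, were called higher, by 1.52 and 1.93 (adjusted p = 0.00062 and 0.00056). The inhibitor genes *Cdkn1a*, for p21, and *Cdkn1b*, for p27, overlapped between the groups. Their log2 fold changes were −0.22 and 0.04 (adjusted p = 0.59 and 0.94).

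Of the genes of the mitotic spindle and cytokinesis, 40 of 42 were higher, with a median log2 fold change of 1.71. *Mki67*, the gene of the proliferation marker Ki-67 (chr7:135689784-135716450), read 212, 189.6, 299 and 304 RPM in *Slc29a3*-/- and 86.7, 43.3, 44.3 and 78.3 RPM in double-knockout replicates 1 to 4. *Birc5*, survivin of the chromosomal passenger complex, read 245, 188, 289 and 338 RPM in *Slc29a3*-/- and 73.8, 76.2, 67.7 and 89.2 RPM in double-knockout replicates 1 to 4. In both, the 4 *Slc29a3*-/- samples lay above the 4 double-knockout samples (log2 fold change 2.01, SE 0.25, adjusted p = 0.00056 for *Mki67*; log2 fold change 1.75, SE 0.18, adjusted p = 0.00046 for *Birc5*). The kinases *Aurkb* and *Plk1*, which drive chromosome segregation, were at 124 ± 26.9 RPM in *Slc29a3*-/- and 49.5 ± 6.59 RPM in double-knockout monocytes and at 72.9 ± 24.9 RPM in *Slc29a3*-/- and 22.4 ± 7.99 RPM in double-knockout monocytes (log2 fold change 1.299, SE 0.18, adjusted p = 0.00086; log2 fold change 1.69, SE 0.2998, adjusted p = 0.0034). *Kifc1*, a minus-end kinesin outside the list, was among the 15 largest increases, at 124 ± 30.4 RPM in *Slc29a3*-/- and 24.2 ± 11.8 RPM in double-knockout monocytes (log2 fold change 2.41, SE 0.32, adjusted p = 0.00068). *Cenph* was not called (log2 fold change 0.87), and *Pttg1*, the gene of securin, was the 1 lower member (−0.78), a call lost with TMM scaling and in 7 of 8 fits that left out a sample.

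Stretches of 4 spindle gene promoters are given because they hold the cell cycle homology region (CHR, TTTGAA) that late cell cycle genes share, in 2 of them close to a CCAAT box. Capitals mark TTTGAA or CCAAT on either strand. The stretches are chr6:125191674-125191739 (minus strand) for *Ncapd2*, chr2:164769870-164769935 (plus strand) for *Ube2c*, chr4:117178840-117178905 (minus strand) for *Kif2c* and chr7:135716442-135716507 (minus strand) for *Mki67*.
Ncapd2: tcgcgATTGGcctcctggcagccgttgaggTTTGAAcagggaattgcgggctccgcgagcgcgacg
Ube2c: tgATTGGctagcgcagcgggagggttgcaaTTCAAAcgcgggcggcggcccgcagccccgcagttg
Kif2c: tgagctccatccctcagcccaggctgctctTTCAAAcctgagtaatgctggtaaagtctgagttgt
Mki67: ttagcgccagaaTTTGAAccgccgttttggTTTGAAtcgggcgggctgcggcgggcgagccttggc

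Replication-dependent histone genes, transcribed in S phase, had the highest median of the cell division lists. Of 20, 18 were higher and 0 lower (median 1.82), and their summed level was 10992 to 17586 RPM in *Slc29a3*-/- and 2590 to 4646 RPM in double-knockout samples. *Hist2h4* read 1652, 1704, 2014 and 2196 RPM in *Slc29a3*-/- and 415, 296, 217 and 449 RPM in double-knockout replicates 1 to 4, without overlap (log2 fold change 2.501, SE 0.22, adjusted p = 0.00046). Reads of near-identical histone genes can be shared, so a single histone's value is uncertain. *Hist2h2be* and *Hist1h4h* were not called, at log2 fold changes of −0.26 and −0.07.

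These counts of cell division genes stayed within 1.5 times under TMM scaling, without granule marker reads and when a sample was left out, but not in the split by Y-linked reads. TMM scaling called 13 licensing, 20 fork, 8 dNTP supply, 40 spindle and 18 histone genes higher, and the same counts came from values recomputed without reads of the neutrophil and primary granule markers. Leaving out samples gave 11 to 15, 13 to 19, 7 to 8, 38 to 40 and 16 to 18. Among samples with Y-linked reads only, no gene was called, and the list medians were 1.21, 1.01, 1.43, 1.77 and 1.72, and among samples without them 1.10, 1.02, 1.29, 1.29 and 1.597. The granule markers that moved with these lists summed, for the neutrophil list, to 7.98 to 14.7% of reads in *Slc29a3*-/- and 1.45 to 4.22% in double-knockout samples. Their part in the cell division result was not tested.

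**Figure D3:**
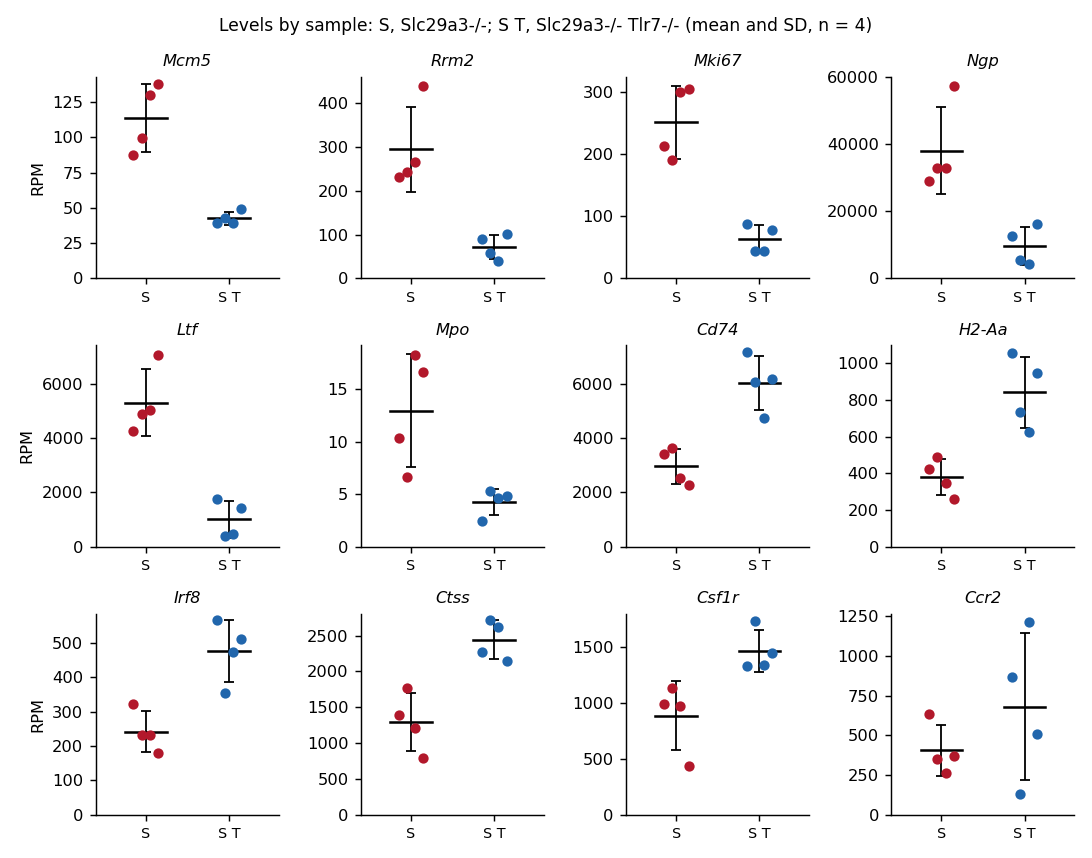
Levels of 12 genes in each sample (y axis, RPM, starting at 0; S, *Slc29a3*-/-; S T, double-knockout; points are samples, the horizontal line is the mean and the bar the SD, n = 4). *Mcm5*, *Rrm2*, *Mki67*, *Ngp*, *Ltf* and *Mpo* lie higher in *Slc29a3*-/- samples, and *Cd74*, *H2-Aa*, *Irf8* and *Ctss* lie lower. *Csf1r* also lies lower but was not called, and *Ccr2* overlaps.

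Growth and metabolism lists showed few calls. *Myc*, the growth factor-induced transcription factor, read 14.4, 7.51, 21.2 and 22.5 RPM in *Slc29a3*-/- and 4.78, 6.09, 7.999 and 7.14 RPM in double-knockout replicates 1 to 4. *Slc29a3*-/- replicate 2 fell among the double-knockout samples, and the call (log2 fold change 1.13, SE 0.32, adjusted p = 0.033) was lost when *Slc29a3*-/- replicate 1, 3 or 4 or double-knockout replicate 1 or 4 was left out (adjusted p up to 0.11). It was the 1 gene of 16 called in the *Myc* and ribosome biogenesis list, whose median was −0.04 and turned to 0.07 with TMM scaling. The nucleolar genes *Ncl* and *Npm1* had log2 fold changes of −0.09 and −0.24 (adjusted p = 0.78 and 0.79).

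In glycolysis, 2 of 13 genes were higher (*Slc2a3*, a glucose transporter, log2 fold change 1.82, and *Hk3*, 0.81), and 4 with TMM scaling. *Hk2*, *Pfkp* and *Ldha* were not called, at −0.01, −0.302 and 0.42. Medians were 0.28 for glycolysis, 0.07 for the respiratory chain, −0.31 for cytosolic ribosomal proteins and −0.34 for cholesterol synthesis. *Sqle* of the sterol pathway overlapped between the groups, at a log2 fold change of −0.65 (adjusted p = 0.38).

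Of 13 nucleoside transport and salvage genes, 2 were higher and 1, *Slc29a3* itself, lower. *Ada*, adenosine deaminase, read 46.7, 52.7, 79.9 and 111 RPM in *Slc29a3*-/- and 16.7, 8.85, 15.999 and 25.6 RPM in double-knockout replicates 1 to 4. The groups did not overlap (log2 fold change 2.05, SE 0.32, adjusted p = 0.0017). The other was *Slc28a2*, a concentrative nucleoside transporter, at a log2 fold change of 1.05. *Slc29a1*, the equilibrative transporter of the plasma membrane, was at 11.2 ± 3.36 RPM in *Slc29a3*-/- and 14.7 ± 3.22 RPM in double-knockout monocytes and not called (log2 fold change −0.39, SE 0.26, adjusted p = 0.35).

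Neutrophil granule genes were higher in *Slc29a3*-/- samples, and several were among the 15 largest increases by the rule for named genes. Whether these reads came from the monocytes or from other cells left in the sort was not tested. Of 18 genes of neutrophil granules and mature neutrophils, 16 were higher and 0 lower (median log2 fold change 2.16). *Ltf*, lactoferrin of the secondary granules (chr9:111019292-111042766), read 4254, 4871, 5026 and 7073 RPM in *Slc29a3*-/- and 1766, 384, 457 and 1415 RPM in double-knockout replicates 1 to 4. *Ngp*, a secondary granule protein (chr9:110419808-110423012), read 29135, 32942, 32876 and 57331 RPM in *Slc29a3*-/- and 12530, 5619, 4209.7 and 16251 RPM in double-knockout replicates 1 to 4. *Ly6g*, the surface marker by which neutrophils had been removed from the sort (chr15:75155261-75159128), read 59.2, 96.9, 70.8 and 139 RPM in *Slc29a3*-/- and 39.8, 8.204, 2.77 and 15.7 RPM in double-knockout replicates 1 to 4. In all 3, every *Slc29a3*-/- sample was above every double-knockout sample, and double-knockout replicates 1 and 4 stood above replicates 2 and 3 (log2 fold change 2.68, SE 0.43, adjusted p = 0.002 for *Ltf*; log2 fold change 2.14, SE 0.42, adjusted p = 0.0056 for *Ngp*; log2 fold change 2.82, SE 0.56, adjusted p = 0.0061 for *Ly6g*).

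*Camp*, *Lcn2* and *Chil1*, further granule genes, had log2 fold changes of 2.19, 2.59 and 2.56 (adjusted p = 0.0022, 0.0023 and 0.00094). *Itgb2l*, an integrin subunit of the neutrophil lineage, read 367, 362, 393 and 605 RPM in *Slc29a3*-/- and 126, 33.1, 29.9 and 109 RPM in double-knockout replicates 1 to 4 (log2 fold change 2.77, SE 0.42, adjusted p = 0.0013). *S100a8* and *S100a9*, which Ly6Chi monocytes express as well, rose by 2.399 and 1.78 (adjusted p = 0.015 and 0.0088), and *S100a8* was no longer called without *Slc29a3*-/- replicate 4 (adjusted p = 0.059). *Csf3r*, the receptor of G-CSF, overlapped between the groups, at 168 ± 31.6 RPM in *Slc29a3*-/- and 185 ± 21.2 RPM in double-knockout monocytes (log2 fold change −0.16, SE 0.16, adjusted p = 0.55), and *Mmp8* had a log2 fold change of −0.93 and was not called.

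Primary granule genes, made at the promyelocyte stage and shared with monocyte progenitors, were higher in 5 of 8. *Elane*, neutrophil elastase, read 400.3, 225, 734 and 578 RPM in *Slc29a3*-/- and 89.96, 204, 143 and 237 RPM in double-knockout replicates 1 to 4. *Mpo*, myeloperoxidase, read 10.3, 6.64, 18.2 and 16.7 RPM in *Slc29a3*-/- and 2.46, 5.28, 4.59 and 4.81 RPM in double-knockout replicates 1 to 4. For *Elane*, *Slc29a3*-/- replicate 2 lay within the double-knockout range, whereas *Mpo* did not overlap (log2 fold change 1.48, SE 0.36, adjusted p = 0.016 for *Elane*; log2 fold change 1.35, SE 0.32, adjusted p = 0.016 for *Mpo*). *Prtn3*, proteinase 3, was at 830.2 ± 397 RPM in *Slc29a3*-/- and 262 ± 101 RPM in double-knockout monocytes (log2 fold change 1.597, SE 0.36, adjusted p = 0.012). Without *Slc29a3*-/- replicate 4, these 3 lost their calls (adjusted p up to 0.063) and 2 of 8 genes of the list were called. Without replicate 3, *Elane* and *Mpo* lost theirs and 3 were called. *Ctsg* missed the threshold (log2 fold change 1.32, SE 0.43, adjusted p = 0.059).

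Stretches from 3 granule gene promoters are printed because C/EBP factors, among them C/EBP epsilon of the granulocyte lineage, bind the motif TTGCNNAA, which capitals mark on either strand. They lie at chr9:111019187-111019254 (plus strand) for *Ltf*, chr9:110419640-110419707 (plus strand) for *Ngp* and chr2:32387918-32387985 (minus strand) for *Lcn2*.
Ltf: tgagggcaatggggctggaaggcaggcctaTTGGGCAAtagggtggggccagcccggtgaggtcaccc
Ngp: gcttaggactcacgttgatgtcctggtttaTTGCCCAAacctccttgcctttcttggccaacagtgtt
Lcn2: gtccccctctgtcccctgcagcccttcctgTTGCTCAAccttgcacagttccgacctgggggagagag

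Factors of myeloid fate moved in both directions, 3 of 25 higher and 7 lower (median −0.53). *Cebpe*, the factor of late granulocyte maturation (chr14:54710363-54712174), read 65.4, 56.3, 71.8 and 60.6 RPM in *Slc29a3*-/- and 21.4, 7.47, 8.55 and 20.6 RPM in double-knockout replicates 1 to 4. *Gfi1*, a repressor that favours granulocytes over monocytes, read 64.1, 49.6, 91.7 and 111 RPM in *Slc29a3*-/- and 24.2, 18.2, 17.6 and 25.9 RPM in double-knockout replicates 1 to 4. Both were higher in every *Slc29a3*-/- sample (log2 fold change 2.19, SE 0.31, adjusted p = 0.00093 for *Cebpe*; log2 fold change 1.78, SE 0.25, adjusted p = 0.00089 for *Gfi1*). *Myb*, the third higher member, a factor of immature and dividing blood cells, was at 129.8 ± 51.3 RPM in *Slc29a3*-/- and 47.2 ± 6.02 RPM in double-knockout monocytes (log2 fold change 1.36, SE 0.26, adjusted p = 0.0051).

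The lower members include factors of monocytes and dendritic cells. *Cebpa* was lower too, a call kept in 3 of 8 fits that left out a sample (adjusted p up to 0.10). *Gata2* is also counted among the lower members but passed the filter on low values only through the double-knockout samples. *Irf8*, which drives monocyte and dendritic cell fate (chr8:120736358-120756694), read 323, 231, 233 and 179 RPM in *Slc29a3*-/- and 566, 355, 475 and 510.2 RPM in double-knockout replicates 1 to 4. The groups did not overlap, and *Slc29a3*-/- replicate 4 was the lowest of the 8 samples (log2 fold change −0.99, SE 0.197, adjusted p = 0.0062). *Klf4* overlapped between the groups and was not called (log2 fold change −0.398, adjusted p = 0.39). Lower calls numbered 5 after TMM scaling, 4 without *Slc29a3*-/- replicate 4 and 3 without double-knockout replicate 3. Beside the factors stands the neutrophil list, higher in 16 of 18 members, whose part in the levels of *Cebpe*, *Gfi1* and *Irf8* was not tested.

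Stem and progenitor markers did not move together. Of 7 tested, *Myb* and *Hlf* were higher (*Hlf* by 2.20), *Flt3*, *Sox4* and *Gata2* were lower, and *Kit* and *Cd34* were not called (log2 fold changes 0.78 and −0.401). *Gata2* passed the filter on low values only through the double-knockout samples, so its call is not independent of that filter. *Kit*, the stem cell factor receptor, read 22.8, 12.2, 33.1 and 32.01 RPM in *Slc29a3*-/- and 15.2, 7.55, 16.2 and 16.3 RPM in double-knockout replicates 1 to 4. Its ranges overlapped (adjusted p = 0.13). Of the lower calls, 1 was left without double-knockout replicate 2 or 3.

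MHC class II presentation was lower in *Slc29a3*-/- monocytes, in 12 of 13 genes (median log2 fold change −1.09; 6.33% of all genes were lower). The list holds the class II chains, the DM and DO chaperones that load and edit peptides, the invariant chain and costimulatory ligands. *Cd74*, the invariant chain, read 3391, 3626, 2527 and 2267 RPM in *Slc29a3*-/- and 7162, 6053, 4720.4 and 6169 RPM in double-knockout replicates 1 to 4. *H2-Aa*, the alpha chain of I-A (chr17:34282744-34287823), read 420.5, 489, 345 and 259 RPM in *Slc29a3*-/- and 1057, 732, 627 and 944 RPM in double-knockout replicates 1 to 4. Every *Slc29a3*-/- sample was below every double-knockout sample (log2 fold change −1.04, SE 0.21, adjusted p = 0.0073 for *Cd74*; log2 fold change −1.16, SE 0.22, adjusted p = 0.0047 for *H2-Aa*). *Ciita*, the master regulator of class II genes, read 105, 91.2, 58.3 and 70.4 RPM in *Slc29a3*-/- and 233, 132, 156 and 122 RPM in double-knockout replicates 1 to 4 (log2 fold change −0.97, SE 0.23, adjusted p = 0.016). Its call was lost without *Slc29a3*-/- replicate 3 or 4 (adjusted p up to 0.055). *Cd80* was the member not called (log2 fold change −0.79). TMM scaling left 11 of 13 lower, and leaving out samples 10 to 13. The list median was −0.84 among samples with Y-linked reads and −1.26 among those without.

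Promoter stretches of 3 class II genes show the CCAAT box (Y box, in capitals, on either strand) that these promoters hold just upstream of the start. They lie at chr17:34287837-34287901 (minus strand) for *H2-Aa*, chr17:34305778-34305842 (plus strand) for *H2-Eb1* and chr17:34153100-34153164 (plus strand) for *H2-DMb1*.
H2-Aa: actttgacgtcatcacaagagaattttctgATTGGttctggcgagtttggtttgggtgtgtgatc
H2-Eb1: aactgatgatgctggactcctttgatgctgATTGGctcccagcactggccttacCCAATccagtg
H2-DMb1: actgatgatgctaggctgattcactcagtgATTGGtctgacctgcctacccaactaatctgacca

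Markers of dendritic cells, which carry much class II, were lower beside it. *Clec9a*, a receptor of conventional type 1 dendritic cells (chr6:129408862-129424764), read 4.94, 3.72, 4.12 and 3.81 RPM in *Slc29a3*-/- and 23.2, 20.6, 37.9 and 34.7 RPM in double-knockout replicates 1 to 4. *Siglech*, a receptor of plasmacytoid dendritic cells (chr7:55768154-55779448), read 3.503, 1.26, 2.22 and 2.86 RPM in *Slc29a3*-/- and 18.5, 17.7, 17.7 and 16.4 RPM in double-knockout replicates 1 to 4. *Xcr1*, of type 1 cells, read 0.637, 0.870, 0.872 and 2.303 RPM in *Slc29a3*-/- and 4.54, 7.72, 5.31 and 14.8 RPM in double-knockout replicates 1 to 4. The groups were far apart in all 3, with every *Slc29a3*-/- value under 6 RPM (log2 fold change −2.51, SE 0.24, adjusted p = 0.00046 for *Clec9a*; log2 fold change −2.47, SE 0.25, adjusted p = 0.00046 for *Siglech*; log2 fold change −1.997, SE 0.36, adjusted p = 0.0037 for *Xcr1*).

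By list, 3 of 6 plasmacytoid, 3 of 6 type 1 and 5 of 8 type 2 dendritic cell markers were lower, and 1 type 2 marker, *Mgl2*, was higher (1.35). *Cd209a*, a lectin of type 2 cells and of some monocytes, was at 12.7 ± 7.79 RPM in *Slc29a3*-/- and 38.96 ± 3.66 RPM in double-knockout monocytes (log2 fold change −1.72, SE 0.34, adjusted p = 0.0057). *Spib*, a factor of plasmacytoid cells, was at 7.38 ± 2.55 RPM in *Slc29a3*-/- and 24.2 ± 3.48 RPM in double-knockout monocytes (log2 fold change −1.64, SE 0.26, adjusted p = 0.002), and *Flt3*, the cytokine receptor of dendritic cell precursors, at 6.03 ± 2.26 RPM in *Slc29a3*-/- and 17.5 ± 3.76 RPM in double-knockout monocytes (log2 fold change −1.43, SE 0.28, adjusted p = 0.0055). Summed levels were 22.2 to 35.4 against 66.1 to 99.6 RPM for the plasmacytoid list, 265 to 342 against 413 to 548 RPM for type 1, and 124 to 269 against 276 to 434 RPM for type 2, *Slc29a3*-/- first. Their part in the class II result was not tested. Without *Slc29a3*-/- replicate 1, 3 or 4 or double-knockout replicate 1 or 3, *Mgl2* was not called. Type 2 markers lower numbered 3 without *Slc29a3*-/- replicate 3 or double-knockout replicate 1, 3 or 4, and 2 without *Slc29a3*-/- replicate 4.

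Transcripts of Toll-like receptors and the MyD88 pathway were lower in 10 of 25 genes and higher in 0 (median −0.59). Beside *Tlr7*, *Tlr8*, its closest relative, read 84.3, 90.1, 70.3 and 57.02 RPM in *Slc29a3*-/- and 137, 135, 211 and 157 RPM in double-knockout replicates 1 to 4. *Tlr9*, the receptor of CpG DNA, read 120.3, 164, 94.4 and 80.6 RPM in *Slc29a3*-/- and 277, 208, 222 and 169 RPM in double-knockout replicates 1 to 4. Both kept the groups apart (log2 fold change −1.07, SE 0.19, adjusted p = 0.0033 for *Tlr8*; log2 fold change −0.96, SE 0.22, adjusted p = 0.013 for *Tlr9*). *Tlr13*, a receptor of bacterial ribosomal RNA, overlapped (log2 fold change −0.396, SE 0.32, adjusted p = 0.43), and *Unc93b1*, which carries these receptors to endosomes, was at 1013 ± 105 RPM in *Slc29a3*-/- and 1467 ± 312 RPM in double-knockout monocytes and missed the threshold (log2 fold change −0.51, SE 0.18, adjusted p = 0.075). TMM scaling called 8 lower and values without granule marker reads 7. The count fell to 5 without *Slc29a3*-/- replicate 3 or double-knockout replicate 3, and to 4 without *Slc29a3*-/- replicate 4.

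Interferon-stimulated genes were lower in 7 of 29 and higher in 1, *Ifit2* (0.78), with a median of −0.52. *Irf7*, the factor that amplifies type I interferon, read 303, 347, 217 and 135 RPM in *Slc29a3*-/- and 581, 441, 415 and 349 RPM in double-knockout replicates 1 to 4. The lowest double-knockout sample was barely above the highest *Slc29a3*-/- sample, and the call (log2 fold change −0.89, SE 0.26, adjusted p = 0.04) held in 3 of 8 fits that left out a sample, failing without *Slc29a3*-/- replicate 3 or 4 or double-knockout replicate 1, 2 or 3 (adjusted p up to 0.10). Without granule marker reads 3 members were lower, with TMM scaling 5. The count was 3 without *Slc29a3*-/- replicate 3 or 4, and 4 without double-knockout replicate 1 or 4. *Ifit2* was called in 3 of 8 such fits.

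Stretches of 3 of the lower genes are given for the interferon response element, searched as TTTC, any 2 bases and TTTC, and marked by capitals on either strand. They are chr19:34640755-34640824 (plus strand) for *Ifit1*, chr12:26456533-26456602 (minus strand) for *Rsad2* and chr3:142559969-142560038 (plus strand) for *Gbp3*. Of the 3, *Ifit1* and *Rsad2* each kept their call in 3 of 8 fits that left out a sample (adjusted p up to 0.076 and 0.11).
Ifit1: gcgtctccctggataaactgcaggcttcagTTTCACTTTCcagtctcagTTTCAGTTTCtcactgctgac
Rsad2: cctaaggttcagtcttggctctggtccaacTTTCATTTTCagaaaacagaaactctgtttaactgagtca
Gbp3: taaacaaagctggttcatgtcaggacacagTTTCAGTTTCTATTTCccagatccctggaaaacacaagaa

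NF-kB targets, switched on by inflammatory signalling, were called lower in 2 of 18 (*Ccl3* and *Icam1*) and higher in 0 (median −0.41). *Nfkbia*, which the pathway induces as its own inhibitor, read 403, 354, 247 and 267 RPM in *Slc29a3*-/- and 376, 183, 408 and 320.2 RPM in double-knockout replicates 1 to 4, and the groups overlapped throughout (log2 fold change 0.01, SE 0.25, adjusted p = 0.98). *Tnfaip3* and *Il1b* also overlapped (log2 fold changes −0.44 and −0.78, adjusted p = 0.56 and 0.3). *Il1b* reached 421 RPM in double-knockout replicate 4 and 38.6 to 106 RPM in all other samples. The cytokine genes *Tnf*, *Il6* and *Il10* fell below the filter, at up to 1.00, 0.722 and 1.04 RPM in any sample. Of 5 cytokine genes tested, *Il18* and *Tgfb1* were lower (−0.75 and −0.59), and 1 remained lower with TMM scaling, without any 1 of the double-knockout samples, and without *Slc29a3*-/- replicate 3 or 4. The NF-kB count was 1 without *Slc29a3*-/- replicate 3 or 4 or double-knockout replicate 3 or 4, and 4 without double-knockout replicate 2.

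Immediate early factors, which fresh stimuli and tissue dissociation induce, were lower in 5 of 20 and higher in 0 (median −0.63). *Fos* read 79.5, 75.2, 49.8 and 62.6 RPM in *Slc29a3*-/- and 112, 279.9, 166 and 520.1 RPM in double-knockout replicates 1 to 4. *Jun* read 25.1, 21.5, 46.6 and 45.7 RPM in *Slc29a3*-/- and 29.8, 56.7, 35.6 and 319 RPM in double-knockout replicates 1 to 4. *Fos* did not overlap (log2 fold change −1.78, SE 0.37, adjusted p = 0.008), whereas *Jun* did, and double-knockout replicate 4 was the highest sample in both (log2 fold change −0.998, SE 0.59, adjusted p = 0.28 for *Jun*). *Egr1* and *Klf2* were not called (log2 fold change −1.03, SE 0.35, adjusted p = 0.069; log2 fold change −0.52, SE 0.22, adjusted p = 0.13). *Dusp1*, a phosphatase that the same stimuli induce, was lower by −1.72 and lost its call without *Slc29a3*-/- replicate 4 (adjusted p = 0.053). Without *Slc29a3*-/- replicate 3 or 4, 3 and 2 genes were called. Heat shock transcripts moved with this list: *Hspa1a* read 40.52, 14.2, 9.28 and 4.69 RPM in *Slc29a3*-/- and 12.5, 244, 119.9 and 889 RPM in double-knockout replicates 1 to 4. Double-knockout replicates 2 to 4 were high and replicate 1 lay within the *Slc29a3*-/- range (log2 fold change −3.31, SE 0.99, adjusted p = 0.042), and the call failed when *Slc29a3*-/- replicate 2, 3 or 4 or double-knockout replicate 2, 3 or 4 was left out (adjusted p up to 0.14). The part of heat shock in the immediate early result was not tested. The list median was −0.50 among samples with Y-linked reads and −1.72 among those without, where double-knockout replicate 4 stands alone.

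Of 21 genes of ITAM and related adaptors and receptors, 3 were higher (*Trem1* by 1.48, *Trem3* by 1.14 and *Clec5a* by 1.46). The 5 lower ones were *Fcgr3* (−0.71), *Trem2* (−1.05), *Clec4d* (−1.14), *Clec4n* (−1.03) and *Clec7a* (−0.67). Receptors that pair with DAP12 stood on both sides, *Trem2* among the lower ones. The adaptor genes themselves were not called: *Fcer1g*, for FcR gamma, read 2213, 2110.5, 2102 and 1765 RPM in *Slc29a3*-/- and 2734, 3258, 2305 and 2733 RPM in double-knockout replicates 1 to 4, and *Tyrobp*, for DAP12, was at 1370.4 ± 271 RPM in *Slc29a3*-/- and 1803 ± 133 RPM in double-knockout monocytes. Both were below double-knockout without overlap but under the fold threshold (log2 fold change −0.42, SE 0.17, adjusted p = 0.11 for *Fcer1g*; log2 fold change −0.42, SE 0.18, adjusted p = 0.13 for *Tyrobp*). *Hcst*, for DAP10, overlapped at 70.3 ± 13.7 RPM in *Slc29a3*-/- and 51.3 ± 13.1 RPM in double-knockout monocytes (log2 fold change 0.46, SE 0.199, adjusted p = 0.14), as did *Fcgr4* at 51.95 ± 9.48 RPM in *Slc29a3*-/- and 46.1 ± 8.03 RPM in double-knockout monocytes (log2 fold change 0.17, SE 0.19, adjusted p = 0.58). The 3 higher calls held under TMM scaling, where 1 lower call was left. Lower calls numbered 0 without *Slc29a3*-/- replicate 3 or 4 or double-knockout replicate 3, and 3 without double-knockout replicate 2.

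Growth factor receptors were higher in 1 of 13 (*Igf1r*, 1.22; 2 genes without *Slc29a3*-/- replicate 2) and lower in 3 (*Flt3*, *Ifngr1* and *Tgfbr2*). *Csf1r*, the receptor of M-CSF, read 997, 1141, 973 and 436 RPM in *Slc29a3*-/- and 1337, 1739, 1347 and 1448 RPM in double-knockout replicates 1 to 4. The groups did not overlap and *Slc29a3*-/- replicate 4 was far below the rest, but the test missed the threshold (log2 fold change −0.81, SE 0.26, adjusted p = 0.058). *Csf2ra*, for the GM-CSF receptor, was at 556 ± 22.4 RPM in *Slc29a3*-/- and 687 ± 82.8 RPM in double-knockout monocytes (log2 fold change −0.297, SE 0.14, adjusted p = 0.16).

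Identity genes of Ly6Chi monocytes were read in these 2 groups only, with no level from other cells beside them, so they do not check the sort. Of those listed, 14 had a value, and all 14 passed the filter on low values. Their summed level was 35098 to 43031 RPM in *Slc29a3*-/- and 43801 to 72162 RPM in double-knockout samples. Of 14, 4 were lower and 0 higher (median −0.50). *Ccr2*, the receptor by which these cells leave the bone marrow, read 636, 350.4, 264 and 373 RPM in *Slc29a3*-/- and 864, 132, 1212 and 511 RPM in double-knockout replicates 1 to 4. Double-knockout replicates held both its lowest and its highest value, so the groups could not be told apart (log2 fold change −0.42, SE 0.54, adjusted p = 0.64). *F13a1* and *Fn1*, both secreted proteins of Ly6Chi monocytes, were called lower (−0.73 and −0.91) but overlapped between the groups and kept the call in 2 and 1 of 8 fits that left out a sample (adjusted p up to 0.099 and 0.11). TMM scaling left 1 lower call in the list. No call was left without *Slc29a3*-/- replicate 3 or 4 or double-knockout replicate 3, 1 without double-knockout replicate 4, and 2 without *Slc29a3*-/- replicate 1 or 2 or double-knockout replicate 2.

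Identity genes of Ly6Clow monocytes were called in 0 of 15 (median −0.39). *Nr4a1*, which those cells require, read 421, 579, 361 and 164 RPM in *Slc29a3*-/- and 703, 637, 528 and 1492 RPM in double-knockout replicates 1 to 4. *Slc29a3*-/- replicate 2 fell within the double-knockout range (log2 fold change −1.15, SE 0.37, adjusted p = 0.058). *Cx3cr1*, *Treml4* and *Ace* overlapped as well, with log2 fold changes of −0.49, 0.06 and −0.75 (adjusted p = 0.41, 0.91 and 0.26). With TMM scaling 1 gene of the list was higher.

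Chemokines made by splenic monocytes were lower in 3 of 8. *Ccl6* read 956, 849, 976 and 556 RPM in *Slc29a3*-/- and 1068, 2337, 1997 and 1617 RPM in double-knockout replicates 1 to 4. *Ccl9* read 1251, 1055, 1080.5 and 768 RPM in *Slc29a3*-/- and 1441, 3071, 2232 and 1879 RPM in double-knockout replicates 1 to 4. *Ccl3* read 5.49, 3.48, 4.995 and 2.14 RPM in *Slc29a3*-/- and 15.6, 20.96, 17.2 and 134 RPM in double-knockout replicates 1 to 4. None overlapped, and the mean of *Ccl3* in double-knockout monocytes rests on replicate 4, without which the other 3 samples were still above every *Slc29a3*-/- sample (log2 fold change −1.05, SE 0.25, adjusted p = 0.016 for *Ccl6*; log2 fold change −1.02, SE 0.23, adjusted p = 0.013 for *Ccl9*; log2 fold change −2.67, SE 0.56, adjusted p = 0.0082 for *Ccl3*). *Ccl2* was low and overlapped, at 1.75 ± 1.07 RPM in *Slc29a3*-/- and 2.703 ± 1.19 RPM in double-knockout monocytes (log2 fold change −0.46, SE 0.34, adjusted p = 0.39).

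Chemoattractant receptors were higher in 5 of 17 and lower in 2. The higher ones are receptors that neutrophils use: *Cxcr2*, *Fpr2*, *C5ar1*, *S1pr4* and *Ltb4r1*, at log2 fold changes of 1.999, 1.35, 0.75, 1.11 and 0.71. *C5ar1*, the C5a receptor, read 38.8, 35.03, 43.3 and 46.1 RPM in *Slc29a3*-/- and 20.3, 28.5, 21.5 and 25.3 RPM in double-knockout replicates 1 to 4, without overlap (log2 fold change 0.75, SE 0.18, adjusted p = 0.015). *Cxcr4* and *Fpr1* overlapped (−0.203 and 0.76, adjusted p = 0.64 and 0.14). *Cxcr3* and *Cmklr1* were lower (−1.21 and −0.92), 1 of them with TMM scaling or without *Slc29a3*-/- replicate 1, 3 or 4 or double-knockout replicate 3. In the complement list, *C5ar1* was the 1 higher gene of 11 and 3 were lower, *C1qb* and *Itgax* among them. With TMM scaling or without double-knockout replicate 3, 2 genes were higher. Of the lower calls, 1 was left with TMM scaling, without *Slc29a3*-/- replicate 1, 3 or 4, and without double-knockout replicate 3 or 4. *C3* was at 3540.1 ± 1111 RPM in *Slc29a3*-/- and 1993 ± 607 RPM in double-knockout monocytes and missed the threshold (log2 fold change 0.84, SE 0.27, adjusted p = 0.053).

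Lysosomal genes were lower in 9 of 38 and higher in 2, with a median of −0.45. *Ctss*, cathepsin S, which trims the invariant chain (chr3:95526786-95556405), read 1396, 1768, 1206 and 794 RPM in *Slc29a3*-/- and 2271, 2711, 2625 and 2149.6 RPM in double-knockout replicates 1 to 4. *Ctsl*, cathepsin L, read 40.1, 41.4, 44.5 and 31.4 RPM in *Slc29a3*-/- and 54.3, 112, 82.4 and 74.9 RPM in double-knockout replicates 1 to 4. *Cd68*, a membrane protein of lysosomes, read 612, 653, 411 and 370.2 RPM in *Slc29a3*-/- and 882, 866, 959 and 703 RPM in double-knockout replicates 1 to 4. All 3 were lower in every *Slc29a3*-/- sample (log2 fold change −0.97, SE 0.22, adjusted p = 0.014 for *Ctss*; log2 fold change −0.99, SE 0.21, adjusted p = 0.0094 for *Ctsl*; log2 fold change −0.77, SE 0.199, adjusted p = 0.023 for *Cd68*). *Cd68* lost its call without *Slc29a3*-/- replicate 3 or 4 or double-knockout replicate 3 (adjusted p up to 0.078). *Ctsb* and *Lipa* were not called (log2 fold changes −0.22 and −0.26). The higher members were *Cd63*, a tetraspanin of lysosomes and of granules (2.25), and *Arsb* (0.66). TMM scaling left 5 lower. Without *Slc29a3*-/- replicate 3, 1 gene was higher. Lower genes numbered 5 without *Slc29a3*-/- replicate 1, and 4 without *Slc29a3*-/- replicate 3 or 4 or double-knockout replicate 3.

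Of 11 nucleases of lysosome and cytosol, which shape the ligands of nucleic acid sensors, 3 were lower. *Dnase1l3*, which digests DNA in microparticles and chromatin (chr14:7965187-7994760), read 7.17, 5.61, 10.1 and 4.69 RPM in *Slc29a3*-/- and 28.9, 22.3, 26.1 and 48.2 RPM in double-knockout replicates 1 to 4. The groups did not overlap (log2 fold change −2.02, SE 0.28, adjusted p = 0.00092). *Pld4*, an exonuclease of single-stranded nucleic acids, overlapped slightly at 892 ± 291 RPM in *Slc29a3*-/- and 1657 ± 361 RPM in double-knockout monocytes (log2 fold change −0.93, SE 0.25, adjusted p = 0.027), and was not called without *Slc29a3*-/- replicate 3 or 4 or double-knockout replicate 3 (adjusted p up to 0.071). Its relative *Pld3* was not called (log2 fold change −0.47, SE 0.22, adjusted p = 0.17). Lower calls numbered 1 without *Slc29a3*-/- replicate 3 and 5 without double-knockout replicate 2.

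Uptake and iron genes split, 2 of 13 higher and 4 lower (*Axl*, *Stab1*, *Mrc1* and *Slc11a1*). *Slc40a1*, the iron exporter ferroportin, read 57.9, 45.7, 72.5 and 82.8 RPM in *Slc29a3*-/- and 34.4, 11.7, 14.3 and 41.8 RPM in double-knockout replicates 1 to 4. *Tfrc*, the transferrin receptor, read 29.7, 18.03, 40.1 and 41.1 RPM in *Slc29a3*-/- and 14.7, 13.6, 12.8 and 13.6 RPM in double-knockout replicates 1 to 4. Both were higher in every *Slc29a3*-/- sample (log2 fold change 1.46, SE 0.36, adjusted p = 0.018 for *Slc40a1*; log2 fold change 1.11, SE 0.25, adjusted p = 0.011 for *Tfrc*), the first losing its call without *Slc29a3*-/- replicate 3 or 4 or double-knockout replicate 3 (adjusted p up to 0.068). *Hmox1*, the heme oxygenase, overlapped, with 971 RPM in double-knockout replicate 4 and 161 to 425 RPM elsewhere. Of the survival and death genes, *Bcl2* and *Mcl1* were lower in every *Slc29a3*-/- sample without reaching the threshold (log2 fold change −0.75, SE 0.25, adjusted p = 0.062; log2 fold change −0.55, SE 0.21, adjusted p = 0.096), and *Bcl2l11* and *Bax* overlapped (−0.28 and −0.41).

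T cell markers summed to 11.7 to 22.3 RPM in *Slc29a3*-/- samples and to 135, 21.3, 25.98 and 30.9 RPM in double-knockout replicates 1 to 4, with 2 of 7 lower (*Cd4* and *Cd8a*). The 7 NK cell markers held no call but 951 RPM in double-knockout replicate 1 against 62.5 to 188 RPM elsewhere, and *Ncr1* read 78.0 RPM in that sample and at most 6.66 RPM in the others. B cell markers summed to 17.9 to 24.8 and 30.2 to 52.0 RPM, with *Cd22* lower. Plasma cell markers were called in 0 of 5, and their sums did not overlap, at 507.9 to 695 RPM in *Slc29a3*-/- and 700.5 to 1233 RPM in double-knockout samples. Red pulp macrophage markers summed to 271 to 446 and 405 to 1167 RPM and were called in 1 of 6 (*Axl*, lower; 2 genes without *Slc29a3*-/- replicate 1 and 3 without double-knockout replicate 2). Of the erythroid list, *Car1* and *Car2* passed the filter. *Car1* was lower, at 7.301 ± 1.13 RPM in *Slc29a3*-/- and 29.3 ± 10.1 RPM in double-knockout monocytes (log2 fold change −1.797, SE 0.28, adjusted p = 0.0018). The other lists held 1 call each: *Siglecf* higher among 3 eosinophil genes, *Gata2* lower among 4 basophil and mast cell genes, and *Gp1bb* higher among 6 platelet genes. *Cd22* and *Siglecf* lost their calls without *Slc29a3*-/- replicate 3 or 4, and *Gp1bb* lost its call in 6 of 8 fits that left out a sample. *Gata2* passed the filter on low values only through the 4 double-knockout samples, so its lower call is not independent of that filter. It fell below the filter when any of them was left out, and its call in the other 4 fits has the same limit. The T cell list kept 1 lower call without *Slc29a3*-/- replicate 3 or 4 or double-knockout replicate 1 or 4. The defining genes *Epx*, *Alas2* and *C1qa* stayed below 2 RPM in every sample.

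Among the abundant genes not yet described, *Arhgdib* was higher (4456 ± 1168 RPM in *Slc29a3*-/- and 2748 ± 215 RPM in double-knockout monocytes; log2 fold change 0.67, SE 0.198, adjusted p = 0.04), and *Psap* and *Tgfbi*, a lysosomal activator and a matrix protein of monocytes, were lower (log2 fold change −0.77, SE 0.23, adjusted p = 0.044; log2 fold change −0.76, SE 0.202, adjusted p = 0.026). *Arhgdib* and *Psap* kept the call in 2 and 1 of 8 fits that left out a sample (adjusted p up to 0.10 in each), and *Tgfbi* lost it without *Slc29a3*-/- replicate 3 or 4 or double-knockout replicate 3 (0.081). Of the largest increases, *Inhba*, the activin A chain, read 73.4, 66.2, 66.7 and 96.5 RPM in *Slc29a3*-/- and 29.3, 6.58, 6.34 and 12.03 RPM in double-knockout replicates 1 to 4. *Klf5*, a zinc finger factor, was at 75.9 ± 17.4 RPM in *Slc29a3*-/- and 15.2 ± 8.601 RPM in double-knockout monocytes. Both kept the groups apart (log2 fold change 2.64, SE 0.38, adjusted p = 0.001; log2 fold change 2.42, SE 0.37, adjusted p = 0.0016). Of the largest decreases, *Il12rb2*, a chain of the IL-12 receptor, was at 13.1 ± 6.29 RPM in *Slc29a3*-/- and 41.8 ± 16.5 RPM in double-knockout monocytes and *Cd7*, a lymphoid surface protein, at 11.4 ± 3.37 RPM in *Slc29a3*-/- and 39.5 ± 14.9 RPM in double-knockout monocytes (log2 fold change −1.64, SE 0.32, adjusted p = 0.0055; log2 fold change −1.68, SE 0.28, adjusted p = 0.0023).

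Promoter windows of 300 bases, from 250 before to 50 after each RefSeq start, could be matched for 8095 of the 10058 genes tested, in 10306 windows. Each motif was searched on both strands and a window was counted once, whether or not motifs overlapped. An E2F motif stood in 4.21% of windows of all genes tested, 10.1% of those of genes higher in *Slc29a3*-/- monocytes and 1.71% of those of genes lower. For CHR the shares were 12.2, 20.9 and 11.4%. For the interferon response element they were 3.19, 2.12 and 6.39%. CCAAT stood in 37.8, 43.6 and 34.6%. The C/EBP motif was found in 8.66, 9.23 and 9.97%, and a PU.1 motif (GAGGAAGT) in 3.58, 3.49 and 3.74%. Over all 32851 windows of the table the shares were 2.26% for E2F, 17.9% for CHR, 37.4% for CCAAT, 3.44% for the interferon element, 10.8% for C/EBP and 3.20% for PU.1. These are counts of letters, not of bound sites, and were not tested.

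Within lists the shares differed more. An E2F motif stood in 6 of 13 windows of the higher licensing genes, the stretches printed for *Cdc6*, *Mcm5*, *Mcm6* and *Mcm7* among them, in 7 of 22 of the fork genes and in 0 of 7 of the dNTP supply genes. CHR stood in 30 of 39 windows of the higher spindle genes, and CHR with CCAAT in 26 (66.7%, beside 4.90% of windows of all genes tested). The C/EBP motif stood in 6 of 15 windows of the higher neutrophil genes. CCAAT was found in 8 of 9 windows of the lower class II genes, and the interferon element in 5 of 7 of the lower interferon-stimulated genes.

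**Figure D4:**
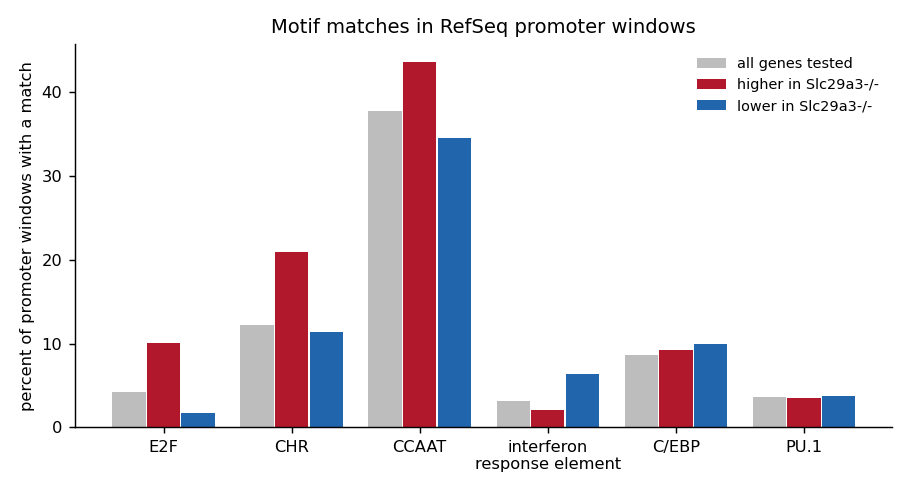
Percent of 300-base promoter windows that hold each motif (y axis, percent of windows; grey, all genes tested; red, genes higher and blue, genes lower in *Slc29a3*-/- monocytes). The share with an E2F motif is 10.1% for genes higher and 1.71% for genes lower, the interferon response element runs the other way, and the C/EBP shares are 8.66, 9.23 and 9.97%.

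The same contrast in Ly6Clow monocytes, sorted from mice of the same 2 genotypes in 4 samples each, shows where the Ly6Chi result differs. Of 9962 genes tested there, 76 were higher and 63 lower in *Slc29a3*-/- samples. The difference of the effects was tested as an interaction over the 16 samples and was called for 625 of 10703 genes (5.84%), 365 more positive and 260 more negative in Ly6Chi monocytes. The effect was more positive in Ly6Chi monocytes for 23 of 42 spindle genes, 12 of 21 histone genes, 7 of 22 fork genes, 6 of 18 licensing genes and 4 of 10 dNTP supply genes, and more negative for 0 in all 5 lists. Their medians were 1.71, 1.73, 1.17, 1.39 and 1.48 in Ly6Chi and 0.24, 0.15, 0.04, 0.14 and 0.26 in Ly6Clow monocytes. Genes could enter this test through reads in either subset alone, and the log2(RPM + 1) scale shrinks effects near 0 RPM. Restricted to the 6789 genes that averaged at least 10 RPM in both subsets, a filter chosen after seeing the data, the difference was called for 230 genes (3.39%), 131 more positive and 99 more negative. These included 7 of 10 spindle, 9 of 14 histone, 3 of 11 fork, 5 of 9 licensing and 1 of 2 dNTP supply genes, all more positive.

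*Mcm5* was at 22.03 ± 1.61 and 28.6 ± 10.2 RPM in *Slc29a3*-/- and double-knockout Ly6Clow monocytes, and the effects differed by 1.68 (SE 0.29, adjusted p = 0.0042). For *Rrm2*, at 9.93 ± 1.58 and 7.55 ± 0.546 RPM, the difference was 1.71 (SE 0.36, adjusted p = 0.0087). *Birc5* and *Hist2h4* differed by 1.59 (SE 0.36, adjusted p = 0.016) and 1.66 (SE 0.31, adjusted p = 0.0059). *Mki67* and *Top2a* missed the threshold, at 0.99 (SE 0.38, adjusted p = 0.13) and 1.66 (SE 0.48, adjusted p = 0.05), and *Mki67* in Ly6Clow samples was low at 7.93 ± 0.957 and 3.56 ± 1.69 RPM.

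The neutrophil granule list summed to 79762 to 146830 RPM in *Slc29a3*-/- and 14532 to 42200 RPM in double-knockout Ly6Chi samples, but to 160.2 to 344 and 158 to 225 RPM in Ly6Clow samples. Most of its genes were near 0 RPM in Ly6Clow monocytes, so their effects could not be compared between the subsets. Of the list, 3 genes averaged at least 10 RPM in both subsets, and the difference was called by limma for 0 of them. *Ltf* and *Ngp* differed by 1.45 (SE 0.76, adjusted p = 0.26) and 0.36 (SE 1.12, adjusted p = 0.87) in the test of all genes.

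MHC class II genes had negative medians in both subsets, −1.09 in Ly6Chi and −1.39 in Ly6Clow monocytes, and the difference was called by limma for 0 of 13 genes. *Cd74* averaged 1853 ± 394 and 7235 ± 3072 RPM in *Slc29a3*-/- and double-knockout Ly6Clow monocytes, and the effects differed by 0.86 (SE 0.37, adjusted p = 0.17). At an effect of −1.84 in Ly6Clow monocytes, *H2-Aa* differed by 0.68 (SE 0.41, adjusted p = 0.33). A p that misses the threshold does not show that the effects were equal.

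The effect on 4 of 7 plasmacytoid markers was more negative in Ly6Chi monocytes, *Siglech* among them (−1.67 (SE 0.44, adjusted p = 0.033)), which was low in Ly6Clow monocytes at 0.716 ± 0.478 and 2.18 ± 1.73 RPM. Only 1 of these markers averaged at least 10 RPM in both subsets, and it was not called there. *Clec9a* was not called (−1.02 (SE 0.37, adjusted p = 0.11)). *Ccl9* and *Fn1*, lower in Ly6Chi monocytes, had effects of 0.48 and 0.72 in Ly6Clow monocytes, and the differences were called (−1.498 (SE 0.29, adjusted p = 0.0066); −1.63 (SE 0.41, adjusted p = 0.026)). *Irf8* and *Tlr7* were not called (−0.83 (SE 0.32, adjusted p = 0.14); −0.49 (SE 0.28, adjusted p = 0.31)).

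**Figure D5:**
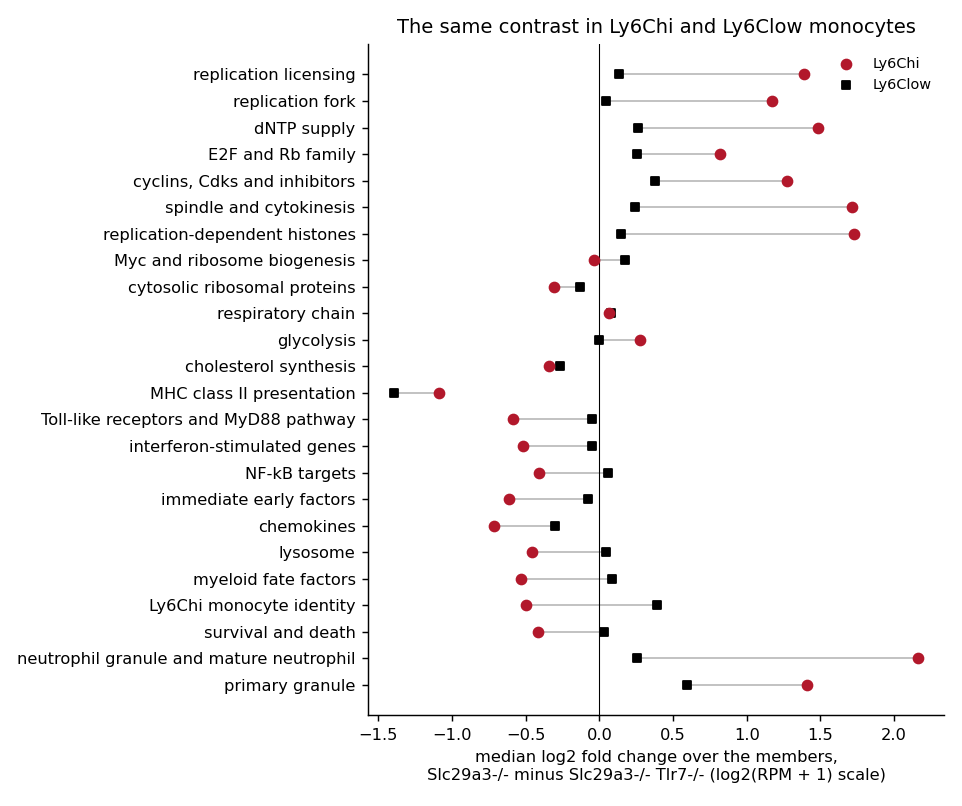
Median log2 fold change of each list (x axis, *Slc29a3*-/- minus double-knockout, log2(RPM + 1) scale) in Ly6Chi (red circles) and Ly6Clow (black squares) monocytes, joined by a line. The cell division lists and the neutrophil granule list lie between 0.82 and 2.16 in Ly6Chi and between 0.04 and 0.38 in Ly6Clow monocytes. The primary granule list lies at 1.41 in Ly6Chi and 0.59 in Ly6Clow monocytes, and MHC class II presentation at −1.09 and −1.39. Most neutrophil genes are near 0 RPM in Ly6Clow monocytes, where this scale shrinks effects.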

How the data were processed

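Sorted spleen monocytes had been profiled by amplicon sequencing, with 1 ng of RNA a sample, 1 amplicon per gene and 4 samples a group. The deposited table holds RPM values of 23930 amplicons, which sum to the same total in each sample, and the authors name mm10 as the genome build. The sources used here name the AmpliSeqRNA plug-in, Cutadapt, STAR, HTSeq and DESeq2, but not the step that wrote the table. The authors wrote 0.0001 for no read, which was set to 0. All values under 5 RPM were whole multiples of a step per sample, within 0.1 read. This gave 12310995 to 12983822 reads in the 8 samples, so their depths were alike.

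Groups followed the labels. Genes of at least 1 RPM in at least 4 samples were tested with limma 3.58.1 in R 4.3.3 (log2(RPM + 1), intensity trend), and calls needed a fold over 1.5 and a Benjamini-Hochberg adjusted p under 0.05. The interaction with Ly6Clow monocytes used the same test on 16 samples. Of the gene symbols, 22654 matched RefSeq (GRCm38.p6), and 27 names turned into dates by a spreadsheet were repaired. Promoter motifs were counted in RefSeq windows. Tables and plots used Python 3.11.15. On simulated data for this comparison, with 10058 genes and 200 changed, 7 of 75 genes changed by 1.5-fold were called. For changes of 2-fold and 4-fold, 35 of 57 and 63 of 68 were called, with 5 false calls in all. The simulation drew each gene independently, without differences shared by the genes of a sample, and changed only genes of at least 10 RPM. Its rates are therefore not error rates of the real comparison.

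Genes to be named were the targeted genes, the 15 highest and 15 lowest fold changes, 5 abundant called genes per direction, and list examples. The highest and lowest were taken among genes of at least 10 RPM without overlap and with an adjusted p under 0.05. Not all of these genes are described in the text. The members and lists were chosen with earlier results of these data known. Other scalings, filters, pseudocounts, a replicate block, left-out samples and splits by Y-linked reads were tried as alternatives. Libraries of other genotypes were not used here. Some genes are not reported here.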

Additional observations from a re-analysis of the deposited data

Results flagged for a closer look

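Among 294 groups of 4 values tested, 25 held 1 sample far from the other 3, by Dixon's test of the gap against the group's range, and chance alone gives about 1 in 20. *Slc29a3*-/- replicate 4 stood apart 7 times. It was high for *Itgb2l* (605.5 RPM), *E2f7* (78.7 RPM), *Tyms* (108.9 RPM) and *Arhgdib* (6202 RPM), and low for *Csf1r* (435.6 RPM), *AW011738* (1.985 RPM) and *Cd2* (1.747 RPM). Double-knockout replicate 4 stood apart 6 times, with 134.4 RPM of *Ccl3*, 420.8 RPM of *Il1b*, 77.78 RPM of *Cdkn1a*, 53.8 RPM of *AW011738*, 11.95 RPM of *Flt3* and 0 RPM of *Ddx3y*.

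In *Slc29a3*-/- replicate 1 the genes were *Pole2* (7.006 RPM), *Pf4* (4.777 RPM), *Xist* (0.876 RPM) and *Ddx3y* (81.76 RPM). In double-knockout replicate 1 they were *Car1* (14.33 RPM), *Cd2* (51.53 RPM) and *Treml4* (368.3 RPM). Double-knockout replicate 2 stood apart for *Tyms* (2.843 RPM), *Cdkn1b* (18.03 RPM) and *Kit* (7.554 RPM), double-knockout replicate 3 for *Spic* (9.346 RPM), and *Slc29a3*-/- replicate 3 for *Cdkn1a* (26.96 RPM).

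The effect of the genotype differed between Ly6Chi and Ly6Clow monocytes for 625 of 10703 genes by the interaction test in limma.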

How the results depend on the processing

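No gene was called in the opposite direction under any setting. The count of 813 higher genes fell to 0 among samples with Y-linked reads and to 177 among those without, where 1 group holds a lone sample assumed to vary like the others. Both splits, the removal of granule marker reads and the filter in both subsets were chosen after seeing the data. The count of 637 lower genes became 413 with TMM scaling, 220 with no filter, 1128 at an unadjusted p, 389 without granule marker reads, and 0 and 80 in the splits by Y-linked reads. Leaving out a sample gave 245 to 636 lower genes, and 556 to 838 higher.

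The 625 genes whose effect differs between Ly6Chi and Ly6Clow monocytes became 409 at a mean of at least 10 RPM, 230 at that mean in both subsets and 388 with a pseudocount of 0.1. Leaving out a sample gave 325 to 741, with 389 and 325 without Ly6Chi *Slc29a3*-/- replicates 3 and 4, 387 without Ly6Chi double-knockout replicate 3, and 395, 368 and 338 without Ly6Clow *Slc29a3*-/- replicates 2, 3 and 4. The causes were not tested.

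A replicate block gave 852 higher and 688 lower genes, and 411 for the interaction with genotype and replicate block. Deviations of Ly6Chi *Slc29a3*-/- and Ly6Chi double-knockout samples with the same number correlated at 0.16, 0.15, −0.21 and 0.16. The numbers were therefore not taken as pairs between these groups. Whether Ly6Chi and Ly6Clow samples of the same genotype and number deviated together was not checked. The main interaction test took all 16 samples as independent.

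Of 275 called genes named or listed, 190 were called in all 8 fits that left out a sample, and TMM scaling kept 248. Of 62 not called, 25 changed sign under at least 1 alternative. Count models were not run, on the RPM values or on reads rebuilt from them. Depth was alike across the 8 samples.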

Other observations

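The single genes that follow lie outside the lists and were chosen after their values were seen. *Brca1*, of DNA repair, read 20.9, 17.7, 29.9 and 31.9 RPM in *Slc29a3*-/- and 9.16, 3.98, 10.9 and 10.7 RPM in double-knockout replicates 1 to 4 (log2 fold change 1.47, SE 0.31, adjusted p = 0.008). The replication checkpoint kinase *Chek1* was at 28.7 ± 6.904 RPM in *Slc29a3*-/- and 7.64 ± 1.702 RPM in double-knockout monocytes (log2 fold change 1.78, SE 0.24, adjusted p = 0.00074). *Serpinb1a*, an inhibitor of neutrophil proteases, was at 339 ± 137 RPM in *Slc29a3*-/- and 81.6 ± 42.98 RPM in double-knockout monocytes (log2 fold change 2.23, SE 0.47, adjusted p = 0.0087), and *Pglyrp1*, a peptidoglycan recognition protein of granules, at 1168 ± 264 RPM in *Slc29a3*-/- and 302 ± 123 RPM in double-knockout monocytes (log2 fold change 2.02, SE 0.26, adjusted p = 0.00068).

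*Nlrp3*, of the inflammasome, read 49.3, 54.95, 48.4 and 27.2 RPM in *Slc29a3*-/- and 81.3, 129, 104 and 60.9 RPM in double-knockout replicates 1 to 4 (log2 fold change −1.04, SE 0.26, adjusted p = 0.02). *Nod2*, a sensor of muramyl dipeptide, was at 34.5 ± 12.1 RPM in *Slc29a3*-/- and 74.1 ± 13.01 RPM in double-knockout monocytes (log2 fold change −1.15, SE 0.27, adjusted p = 0.014). The cholesterol exporter *Abca1* was at 12.9 ± 4.37 RPM in *Slc29a3*-/- and 30.6 ± 12.7 RPM in double-knockout monocytes (log2 fold change −1.16, SE 0.32, adjusted p = 0.029) and the apolipoprotein *Apoe* at 29.1 ± 3.85 RPM in *Slc29a3*-/- and 66.97 ± 12.4 RPM in double-knockout monocytes (log2 fold change −1.16, SE 0.18, adjusted p = 0.0018). *Thbs1*, thrombospondin 1, read 17.4, 41.8, 18.6 and 31.6 RPM in *Slc29a3*-/- and 38.3, 345, 318 and 219 RPM in double-knockout replicates 1 to 4, where double-knockout replicate 1 lay within the *Slc29a3*-/- range (log2 fold change −2.72, SE 0.57, adjusted p = 0.008). The share of granule markers was higher in the *Slc29a3*-/- samples, and its part in the levels of these genes was not tested.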
